A study of Mus musculus with 8 samples.

Results

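Lrrc15 and 9 genes known from fibroblasts of the heart (Pdgfra, Tcf21, Dpt, Gsn, Meox1, Cilp, Fap, Ddr2 and Tbx20) were compared in hearts of mice with and without a Carns transgene. These are 10 of the 18215 gene numbers in the deposited tables. Lrrc15 was chosen by its lower level in the transgenic hearts of these same libraries, so that difference is described here without a test. The other 9 genes were picked by name as a reference. The study sequenced polyadenylated RNA of whole heart from Carns transgenic mice (TG) and wild-type mice (WT), with 4 libraries in each group. The sources used here give no promoter for the transgene, and no strain, age or sex. Nor do they state that each library is a different animal. The p-values therefore describe spread among libraries, which may be technical.

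Fibroblasts of the heart make and maintain the collagen-rich matrix between the muscle cells. After injury or under signals such as transforming growth factor beta (TGF-beta) they activate, divide and deposit more matrix. Pdgfra, a receptor tyrosine kinase for platelet-derived growth factors, and Tcf21, a basic helix-loop-helix transcription factor, are widely used to recognise the resting cells. Lrrc15 encodes a leucine-rich repeat membrane protein that is known from activated fibroblasts of tumours and joints, where TGF-beta induces it. The reference set is not equally specific, since cardiac muscle cells also express the T-box factor Tbx20, and many cell types express Gsn, which encodes the actin-severing protein gelsolin. The set also holds Meox1 and Fap, which are known from activated fibroblasts.

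The sequence just before the start of Lrrc15 is shown because the results turn on this gene. It is the 250 bases upstream of the RefSeq start in build GRCm38.p6, at chr16:30283255-30283504 on the minus strand, written 5′ to 3′. The capitals mark a match to TGANTCA, the core motif of AP-1 factors.

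Lrrc15: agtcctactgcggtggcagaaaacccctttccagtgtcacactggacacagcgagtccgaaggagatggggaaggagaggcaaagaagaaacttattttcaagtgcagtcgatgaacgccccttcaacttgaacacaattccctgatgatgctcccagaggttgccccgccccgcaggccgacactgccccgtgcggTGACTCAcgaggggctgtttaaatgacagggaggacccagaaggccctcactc

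The match begins 53 bases before the start. Upstream windows were found for 8 of the 10 genes, and of these only that of Lrrc15 held TGANTCA on either strand. Across 32851 RefSeq promoter windows of 250 bases, 6.75% held it. The Lrrc15 window held none of the other 3 motifs searched on both strands: CAGAC, a SMAD motif (42.2% of windows), CAGCTG, an E-box of the kind TCF21 binds (13.0%), and GGAATG, a TEAD motif (12.6%). CAGCTG was present in the windows of Dpt, Gsn and Cilp, and CAGAC in those of Pdgfra, Tcf21, Gsn and Tbx20. A match describes the letters only, and that of Lrrc15 overlaps no other searched motif.

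The libraries held 6261193 to 7897629 expected counts each, that is, reads assigned to genes by estimation. By total they fell into 4 deeper libraries (TG replicates 1 and 3, WT replicates 1 and 2) and 4 shallower ones (TG replicates 2 and 4, WT replicates 3 and 4), so each group had 2 of each. Levels are given in CPM, the count of a gene relative to its library total after TMM scaling between libraries. Carns1, the targeted gene, stood at 19070 to 24290 CPM in TG and 44.5 to 73.3 CPM in WT, which matches the labels. Muscle genes of the atria stood apart in TG replicate 2, where 8 atrial genes summed to 928 CPM against 88.4 to 294 CPM in the other 7 libraries. Fat genes did so as well, at 1835 CPM against 445 to 669 CPM. Genes of valve and tendon tissue stood apart in TG replicate 4, at 506 CPM against 85.7 to 180 CPM.

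All 4 TG values of Lrrc15 lay below all 4 WT values. Its level was 8.87, 9.68, 12.1 and 8.32 CPM in TG replicates 1 to 4 and 28.7, 28.1, 20.6 and 19.7 CPM in WT replicates 1 to 4. These rest on 56 to 87 reads per TG library and 129 to 223 per WT library. The mean was 9.74 ± 1.67 CPM in TG against 24.3 ± 4.8 CPM in WT (SD, n = 4 each), a level 2.49-fold lower, or a log2 fold change of -1.32 (SE 0.18, 95% interval -1.70 to -0.94). Groups that do not overlap, with TG lower, were found for 1.29% of the 12670 tested genes, and Lrrc15 was chosen for this contrast, so nothing is read from that share. In bulk RNA of a heart, fewer cells of a type and less RNA per cell cannot be told apart.

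Lrrc15 was lower in TG in both depth classes, as it must be where all 4 TG values lie below all 4 WT values. The values are a description, since Lrrc15 was chosen by this contrast. In the deeper libraries Lrrc15 averaged 10.5 CPM in TG against 28.4 CPM in WT, and in the shallower ones 8.998 and 20.2 CPM. The WT libraries themselves split, with the 2 deeper ones near 28 CPM and the 2 shallower ones near 20 CPM, while the TG libraries of the 2 classes overlapped. With TG replicates 2 and 4 left out, the libraries with the highest levels of fat or valve and tendon genes, the log2 fold change was -1.22. Its direction was fixed in the same way, so nothing is read from it.

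**Figure D1:**
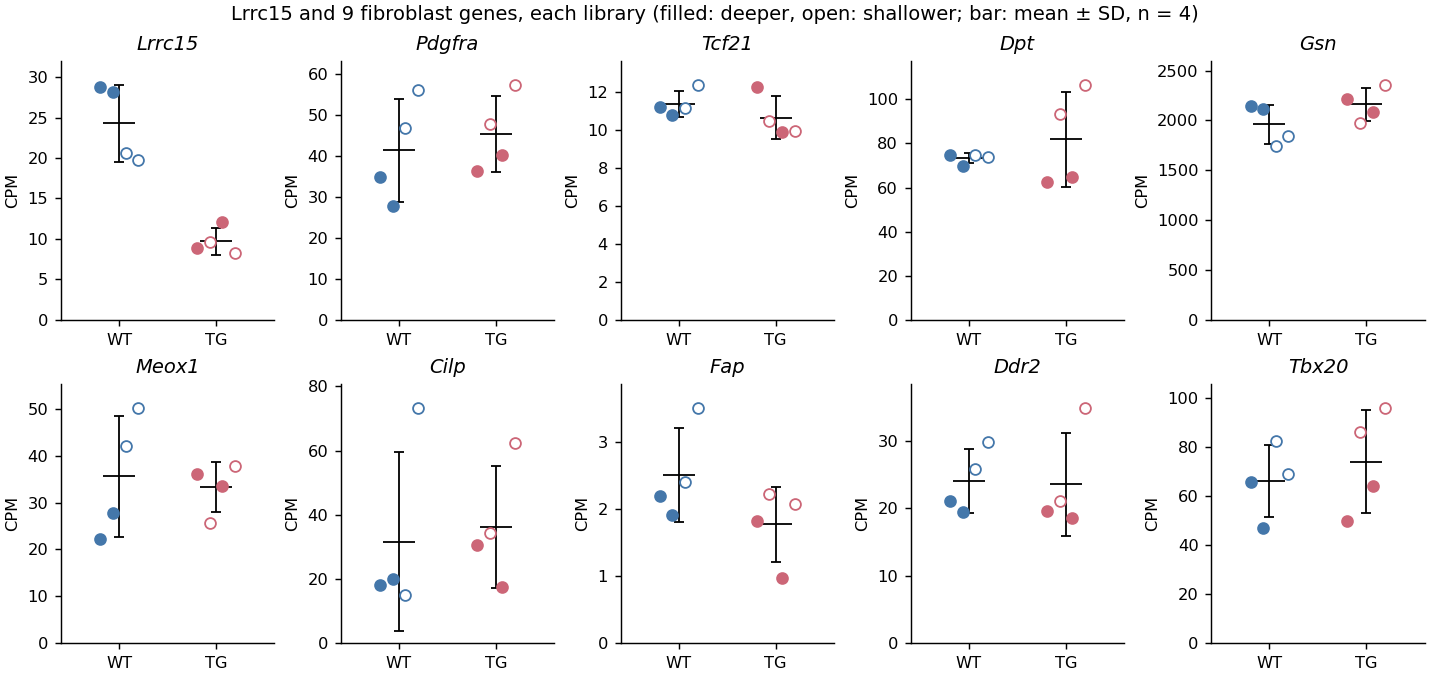
Level of Lrrc15 and of 9 fibroblast genes in CPM (vertical axes, from 0) in each of 4 WT and 4 TG libraries, with filled points for deeper and open points for shallower libraries and bars for the mean ± SD. The 4 TG values of Lrrc15, 8.32 to 12.1 CPM, lie below its 4 WT values of 19.7 to 28.7 CPM, and the groups overlap in each of the other 9 genes.

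None of the 9 reference genes separated the groups or passed the test between TG and WT. By edgeR's quasi-likelihood test with Benjamini-Hochberg adjustment over all genes, 0 of 9 passed, the adjusted p was 0.9995 for each, and 0 of 9 had an unadjusted p under 0.05. DESeq2 called 0 of 9 as well. Over all tested genes edgeR called 0.0158% (2 of 12670), and 3.49% had an unadjusted p under 0.05. The 2 are Carns1 and Lrrc15. Nothing is read from the call of Lrrc15, which was chosen by this contrast and was not called without the Carns1 reads. With the depth class as a covariate edgeR called 0 of 9, against 0.221% of all genes. The median log2 fold change of the 9 was 0.13, beside -0.002 over all tested genes, with 5 positive and 4 negative.

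Both receptors of the set had overlapping groups. Pdgfra stood at 36.3, 47.9, 40.2 and 57.5 CPM in TG replicates 1 to 4 and at 34.9, 27.8, 46.9 and 56.1 CPM in WT replicates 1 to 4, a log2 fold change of 0.13 (95% interval -0.31 to 0.58). The shallower libraries were the higher ones in both groups. Ddr2, a collagen-binding receptor tyrosine kinase, stood at 19.6, 21.1, 18.5 and 34.9 CPM in TG against 21.1, 19.4, 25.9 and 29.8 CPM in WT, a log2 fold change of -0.03 (-0.48 to 0.42). TG replicate 4 was the highest of the 8. Counts of Ddr2 and Tbx20 were fractional in all 8 libraries, so part of their reads was divided between gene models and these 2 levels are less certain.

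Among the transcription factors, Tcf21 was the steadiest. It stood at 12.3, 10.5, 9.87 and 9.95 CPM in TG replicates 1 to 4 and 11.2, 10.8, 11.1 and 12.4 CPM in WT, a log2 fold change of -0.09 (95% interval -0.41 to 0.22). Its coefficient of variation was 10.5% among TG and 6.1% among WT libraries, against 17.1% and 19.7% for Lrrc15. Tbx20 stood at 49.8, 86.0, 64.0 and 96.0 CPM in TG against 65.7, 46.8, 82.3 and 68.9 CPM in WT (log2 fold change 0.16, -0.28 to 0.61). Meox1, a homeobox factor known from activated cardiac fibroblasts, stood at 36.1, 25.7, 33.6 and 37.7 CPM in TG against 22.2, 27.8, 42.1 and 50.3 CPM in WT (-0.09, -0.58 to 0.40). The WT libraries of Meox1 spread more widely, by 2.27 times from lowest to highest, than its TG libraries, by 1.47 times.

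The matrix genes differed in their steadiness. Dpt, which encodes the collagen-associated protein dermatopontin, stood at 62.4, 93.4, 64.8 and 106.7 CPM in TG replicates 1 to 4 and 74.7, 69.9, 74.8 and 73.8 CPM in WT (log2 fold change 0.16, 95% interval -0.19 to 0.50). Its WT libraries lay close together, and the TG libraries lay below them in the deeper class and above them in the shallower class. Cilp, a secreted protein of cartilage that cardiac fibroblasts also make, stood at 30.4, 34.4, 17.4 and 62.4 CPM in TG against 18.03, 20.1, 14.9 and 73.4 CPM in WT (0.20, -0.83 to 1.23). Replicate 4 of each group was far above the rest, and without WT replicate 4 the log2 fold change was 1.03, without TG replicate 4 -0.20. The valve and tendon genes named above were highest in those same libraries, at 506 and 180 CPM, and their part in the Cilp level was not tested.

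Gelsolin was by far the most abundant of the set and Fap the least. Gsn stood at 2219, 1978, 2089 and 2359 CPM in TG replicates 1 to 4 and 2144, 2115, 1748 and 1846 CPM in WT (log2 fold change 0.14, 95% interval -0.10 to 0.38). Fap, a membrane protease used to recognise activated fibroblasts, stood at 1.83, 2.22, 0.97 and 2.08 CPM in TG against 2.19, 1.91, 2.41 and 3.52 CPM in WT (-0.49, -1.19 to 0.20). These rest on 7 to 23 reads per library, and the interval of Fap was wide.

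**Figure D2:**
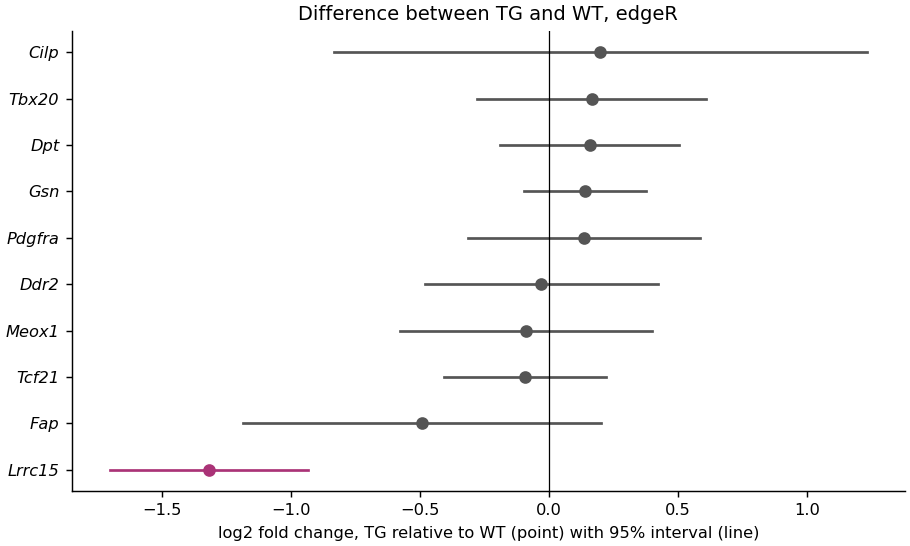
Log2 fold change of TG relative to WT (points) with its 95% interval from edgeR (lines) for Lrrc15 and the 9 fibroblast genes. Lrrc15 stands at -1.32 (-1.70 to -0.94), and the intervals of the other 9 genes all include 0, that of Fap reaching -1.19.

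Lrrc15 was also lower relative to the fibroblast genes. The log2 CPM of Lrrc15 minus the mean log2 CPM of the 9 genes was -2.04, -2.07, -1.43 and -2.60 in TG replicates 1 to 4 and -0.30, -0.24, -0.94 and -1.38 in WT replicates 1 to 4. The group means were -2.03 ± 0.48 and -0.72 ± 0.55 (SD, n = 4 each), a difference of -1.32. The groups were separated by a small gap, between TG replicate 3 and WT replicate 4. This is again a description, since it carries the contrast by which Lrrc15 was chosen.

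The separation depended on the reference. Without Tbx20 and Gsn, which other cells also express, the values of the groups overlapped, at -0.44 in TG replicate 3 and -0.59 in WT replicate 4, with a difference of means of -1.29. Against 30 other fibroblast genes, among them the collagens and Dcn, the groups did not overlap and the difference was -1.33. As a plain ratio, Lrrc15 CPM per Pdgfra CPM ran from 0.14 to 0.30 in TG and from 0.35 to 1.01 in WT. Per Tcf21 CPM it ran from 0.72 to 1.23 in TG and from 1.59 to 2.61 in WT. The ratios to Cilp and to Fap overlapped between groups, and those to the other 7 genes did not.

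**Figure D3:**
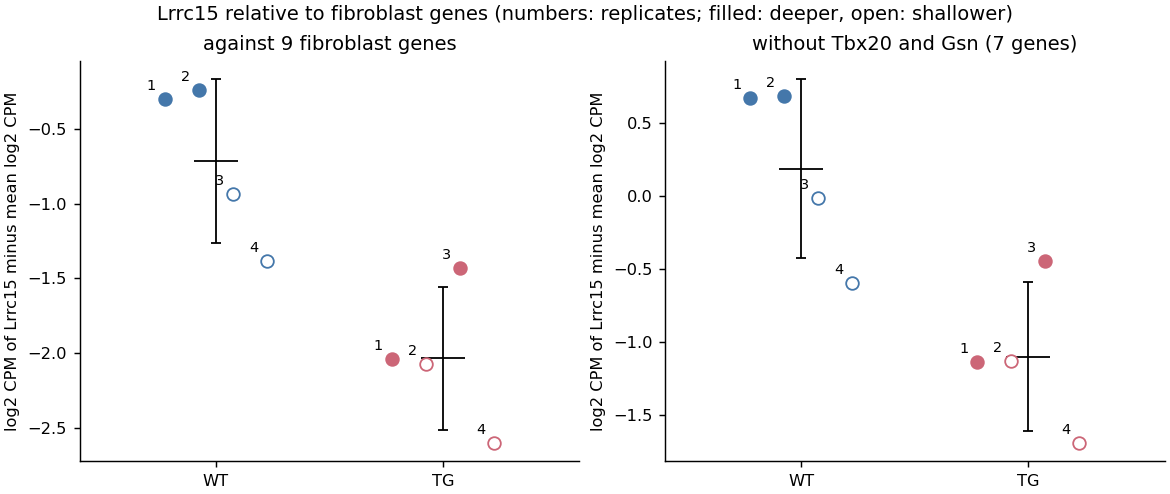
Log2 CPM of Lrrc15 minus the mean log2 CPM of the 9 fibroblast genes (left) and of 7 of them without Tbx20 and Gsn (right), for each library by group, with replicate numbers, filled points for deeper libraries and bars for the mean ± SD. On the left TG lies between -2.60 and -1.43 and WT between -1.38 and -0.24, and on the right TG replicate 3 at -0.44 lies above WT replicate 4 at -0.59.

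Per length, on the scale of the deposited FPKM, the 10 genes ranged widely. Gsn came first at 767 ± 71 FPKM (SD, n = 8), then Dpt at 47.5 ± 10.2, and neither overlapped its neighbours. Meox1 (15.4 ± 4.5), Tbx20 (10.7 ± 2.9), Tcf21 (8.94 ± 0.86), Cilp (8.14 ± 5.58) and Pdgfra (6.55 ± 1.76) followed, and each overlapped the next in range. Lrrc15 (3.14 ± 1.54), Ddr2 (2.82 ± 0.78) and Fap (0.79 ± 0.28) were lowest, and Fap did not overlap Ddr2. In WT the level of Lrrc15 was 3.81 to 5.30 FPKM, above every WT value of Ddr2 (2.18 to 3.68) and overlapping Pdgfra (3.98 to 8.78). In TG it was 1.58 to 2.18 FPKM, below every TG value of Pdgfra (5.28 to 8.87) and overlapping Ddr2 (2.13 to 4.24) in TG replicate 3 alone.

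Some of the fibroblast genes differed with the depth class of the library, a comparison that the choice of Lrrc15 did not use. With the group in the same fit, 5 of the 10 genes were higher in the shallower libraries and 1, Lrrc15, was lower (edgeR, Benjamini-Hochberg). Tcf21, Gsn, Meox1 and Fap were not called. Over all tested genes 17.8% were called higher and 14.4% lower in the shallower libraries. Pdgfra averaged 34.8 CPM in the deeper and 52.1 CPM in the shallower libraries, a log2 difference of 0.59 (SE 0.11, edgeR adjusted p = 0.0026). Tbx20 averaged 56.6 and 83.3 CPM (0.55, SE 0.12, edgeR adjusted p = 0.0052). Both calls held whichever single library was left out.

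The other calls were less firm. Ddr2 averaged 19.6 and 27.9 CPM (log2 difference 0.51, edgeR adjusted p = 0.015), and without TG replicate 4 the difference was 0.34 and the call was lost (edgeR adjusted p = 0.054). Cilp had a log2 difference of 1.11 (edgeR adjusted p = 0.033), which was 0.56 without WT replicate 4 (edgeR adjusted p = 0.173). Its call was lost in 5 of the 8 fits that left out a single library (TG replicates 3 and 4, WT replicates 1, 2 and 4), and with DESeq2 (adjusted p = 0.108). Dpt had a difference of 0.35 (edgeR adjusted p = 0.031), and its call was lost without any 1 of the 4 TG replicates (edgeR adjusted p 0.057 to 0.119). Lrrc15 went the other way, from 19.5 CPM in the deeper to 14.6 CPM in the shallower libraries, with a log2 difference of -0.38 (SE 0.12, edgeR adjusted p = 0.031). That call was lost in 6 of the 8 fits that left out a single library, those without TG replicate 3 or 4 or any 1 of the WT replicates (edgeR adjusted p 0.064 to 0.091). It was also lost with DESeq2 (adjusted p = 0.080) and with scaling by library totals alone (edgeR adjusted p = 0.073). Without TG replicate 4, 2 of the 10 genes were called, and without TG replicate 3, 3 were.

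Gene length moved with the depth class. The tested genes were split by length into 4 classes of about equal size. Among the shortest class, up to 1838 bases, the median log2 difference between shallower and deeper libraries was -0.14, and among the longest class, from 4342 bases, it was 0.17. Pdgfra (6554 bases), Tbx20 (6427) and Ddr2 (8306) belong to the longest class and moved in its direction, further than its median. Lrrc15 (5323 bases) belongs to it as well and stood on the opposite side. Dpt (1636 bases) is in the shortest class and was higher in the shallower libraries. The part of length in these differences was not tested.

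**Figure D4:**
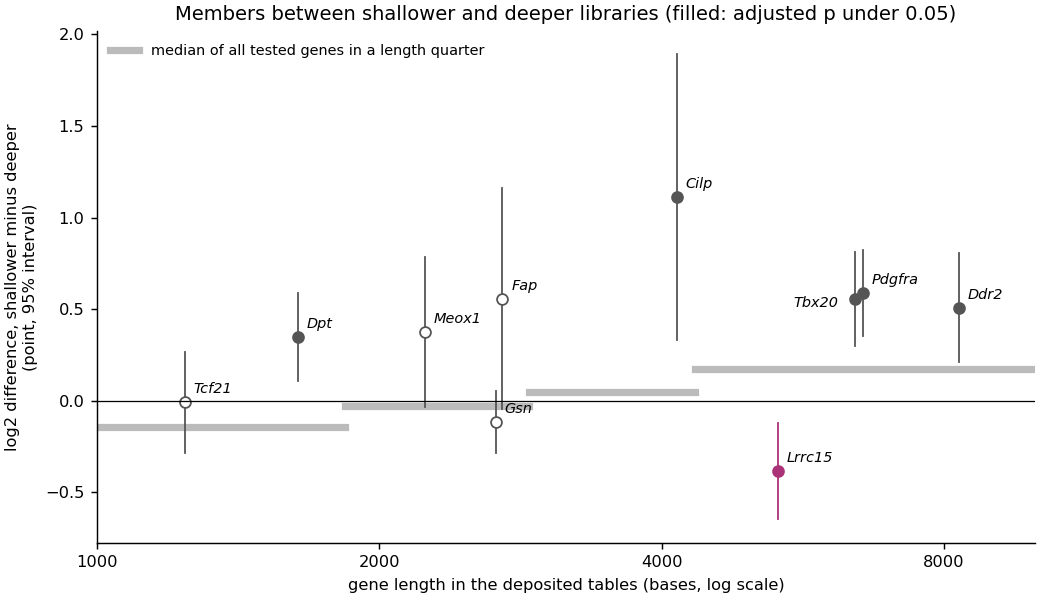
Log2 difference between shallower and deeper libraries (vertical axis, points with 95% intervals, filled where the edgeR adjusted p is under 0.05) against gene length in bases (log scale) for Lrrc15 and the 9 fibroblast genes, with grey bars for the median of all tested genes in each of 4 length classes, drawn within the plotted range. Pdgfra, Tbx20 and Ddr2 lie at 0.51 to 0.59, above the grey bar of the longest class at 0.17, and Lrrc15 lies below it at -0.38.

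Meox1 and Dpt had opposite differences between TG and WT in the 2 depth classes. Meox1 averaged 34.9 CPM in TG against 25.0 CPM in WT among the deeper libraries, and 31.7 and 46.2 CPM among the shallower ones. The groups did not overlap in either class, which also held for Lrrc15, Fap and Dpt. Each class holds only 2 libraries of a group, so nothing is read from such a separation. Dpt averaged 63.6 and 72.3 CPM in TG and WT among the deeper libraries, while among the shallower ones its TG values of 93.4 and 106.7 CPM lay above the WT values of 74.8 and 73.8 CPM. The interaction of group and class was -1.02 for Meox1 (SE 0.26, edgeR adjusted p = 0.545) and 0.62 for Dpt (SE 0.15, edgeR adjusted p = 0.476), and neither passed. For Lrrc15 the interaction was 0.28 (SE 0.25).

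Other genes of resident fibroblasts also showed no called change between TG and WT. Of 30, all tested, edgeR and DESeq2 called 0, 17 had a positive and 13 a negative fold change, and the median log2 fold change was 0.01. Over all tested genes edgeR called 2 (0.0158%), Carns1 and Lrrc15, and DESeq2 called 16. Neither Carns1 nor Lrrc15 is in any list, so 0 edgeR calls followed for this list and those below. Nothing is read from these zeros. An unadjusted p under 0.05, found for 3.49% of all tested genes, was seen here in a single gene. That was the matricellular gene Smoc2, at 96.6 ± 8.5 CPM in TG against 121.0 ± 16.3 CPM in WT (SD, n = 4 each). Sparc, the most abundant of the list per length, stood at 725 ± 19 and 772 ± 39 CPM, and the protease gene Htra3 at 271 ± 6 and 247 ± 12 CPM. The scavenger receptor gene Scara5 stood at 33.5 ± 7.6 and 28.0 ± 3.3 CPM. Dkk3 varied most, from 1.77 to 42.5 CPM, and was highest in TG replicates 2 and 4, at 37.0 and 42.5 CPM. The atrial list holds Dkk3 itself, so its sums include the Dkk3 level. They were 928 and 286 CPM in these libraries and 294 CPM in WT replicate 4, where Dkk3 stood at 10.4 CPM. The part of atrial muscle in the Dkk3 level was not tested. Between depth classes, 11 of these 30 genes were called higher in the shallower libraries and 1 lower (edgeR, Benjamini-Hochberg). Over all tested genes 17.8% were called higher and 14.4% lower there.

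Genes of activated fibroblasts had mostly positive fold changes in TG, without any call. Of 30, 26 were tested and 0 were called by edgeR or DESeq2. A positive fold change was found for 22 of the 26, against 6277 of all 12670 tested genes. An unadjusted p under 0.05 was found for 2, against 3.49% of all tested genes. The median log2 fold change of the list was 0.18, and it was 0.32 in shallower and -0.01 in deeper libraries. The tropomyosin gene Tpm2 stood at 54.8 to 63.1 CPM in TG against 39.4 to 51.2 CPM in WT, without overlap, as 1.23% of tested genes did with TG higher (log2 fold change 0.35, edgeR adjusted p = 0.9995). Sfrp1, a secreted regulator of Wnt signalling, stood at 29.4 ± 3.6 and 21.8 ± 4.0 CPM, and the metalloproteinase inhibitor Timp1 at 4.80 ± 1.65 and 3.14 ± 1.02 CPM (SD, n = 4 each). Cnn1, a contractile protein of smooth muscle, stood at 10.9 ± 3.9 and 8.32 ± 1.501 CPM. Acta2, smooth muscle actin and the most abundant of the list, was highest in WT replicate 4 at 750 CPM and lay between 311 and 398 CPM in the other libraries. The summed level of the list was 1107 to 1680 CPM in TG against 1032 to 1754 CPM in WT, highest in replicate 4 of each group. Comp, Fmod, Cilp2 and Thbs4 are also in the valve and tendon list. They were highest in TG replicate 4, Comp at 54.4 CPM and Fmod at 103.5 CPM. The part of valve and tendon tissue in these fold changes was not tested.

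The TGF-beta pathway, which induces Lrrc15 in other fibroblasts, had no called member. Of 33 genes 31 were tested, 0 were called by edgeR or DESeq2, 19 were positive and 12 negative, and the median log2 fold change was 0.01. Among ligands, Tgfb1 stood at 84.4 ± 12.2 CPM in TG against 96.8 ± 8.3 CPM in WT, and Bmp4 at 9.94 ± 1.67 and 8.47 ± 1.24 CPM (SD, n = 4 each). Lrrc32, which holds latent TGF-beta at the cell surface and is itself a leucine-rich repeat protein, had the smallest unadjusted p of the list. It was the only gene of the list under 0.05, against 3.49% of all tested genes. It stood at 46.6, 41.4, 54.8 and 46.9 CPM in TG against 68.8, 61.8, 47.5 and 58.5 CPM in WT, so the groups overlapped (log2 fold change -0.32, edgeR adjusted p = 0.9995). Eng, a co-receptor of endothelium and the most abundant, stood at 632 ± 88 and 656 ± 68 CPM, and the target gene Id1 at 51.0 ± 11.7 and 64.7 ± 12.9 CPM.

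Growth factor and matrix receptors with their ligands gave no call either. Of 26 genes 25 were tested, 0 were called by edgeR or DESeq2, and the median log2 fold change was -0.03. An unadjusted p under 0.05 was found for 2, against 3.49% of all tested genes. Ddr1, a collagen receptor related to Ddr2, stood at 54.0, 44.9, 53.0 and 50.2 CPM in TG against 43.7, 40.5, 31.6 and 40.04 CPM in WT, without overlap (log2 fold change 0.37, edgeR adjusted p = 0.9995). Such a separation with TG higher was found for 1.23% of all tested genes. The growth factor gene Pdgfd stood at 3.76 ± 0.55 CPM in TG against 5.67 ± 1.99 CPM in WT (SD, n = 4 each). The integrin genes Itgb3 and Itgb1, the latter the most abundant, stood at 7.35 ± 0.99 and 310.7 ± 77.1 CPM in TG against 6.04 ± 0.49 and 328 ± 80 CPM in WT.

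Leucine-rich repeat genes that resemble Lrrc15 in domain type had no call either. Of 30, 23 were tested, 0 were called by edgeR or DESeq2, 15 were negative and 8 positive, and the median log2 fold change was -0.04. Igfals, the acid-labile subunit that binds insulin-like growth factors, had the smallest unadjusted p, at 5.48, 7.77, 6.95 and 4.90 CPM in TG against 11.9, 11.5, 10.1 and 6.73 CPM in WT (log2 fold change -0.68, edgeR adjusted p = 0.9995). The axon guidance gene Slit3 stood at 24.8 ± 4.8 and 19.8 ± 2.0 CPM, and Lrtm1, the most abundant, at 472 ± 47 and 553 ± 100 CPM in TG and WT (SD, n = 4 each).

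**Figure D5:**
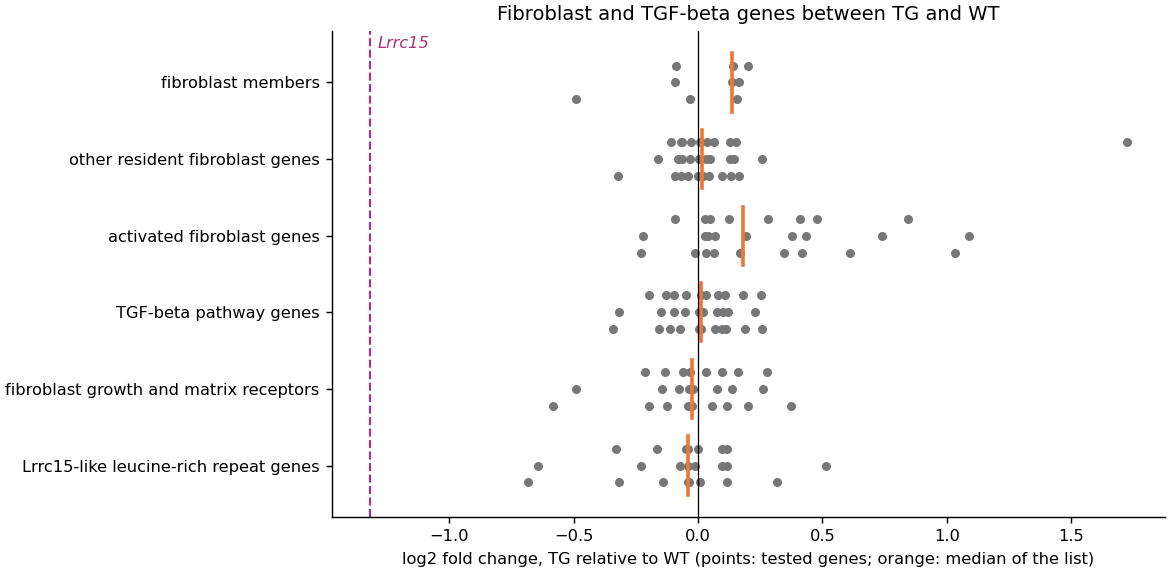
Log2 fold change of TG relative to WT (horizontal axis) for each tested gene of 6 lists (points, spread vertically for view), with the median of each list in orange and the value of Lrrc15 as a dashed line. The medians lie between -0.04 and 0.18, and no gene of these lists reaches the -1.32 of Lrrc15.

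Protein-coding neighbours of Lrrc15 in the RefSeq order of chromosome 16 had no called difference. On one side lie Cpn2 and Hes1, on the other Gp5 and Atp13a3. Hes1, a transcriptional repressor of the Notch pathway, stood at 29.7 ± 5.8 CPM in TG against 30.1 ± 3.8 CPM in WT, and Atp13a3, an ion-pump family member, at 26.2 ± 6.4 and 24.5 ± 7.5 CPM (SD, n = 4 each). Cpn2, a leucine-rich repeat subunit of carboxypeptidase N, lay at 0.26 to 2.54 CPM in TG against 0.90 to 2.06 CPM in WT, close to the 0.38 to 0.48 CPM that 3 reads are worth. Gp5, a platelet glycoprotein, did not pass the filter on low counts. Hes1, Cpn2 and Atp13a3 each had an edgeR adjusted p of 0.9995.

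Genes with the profile most like that of Lrrc15 were looked for among 11162 genes of at least 1 FPKM in a group, by Pearson's r of log2 CPM over the 8 libraries. The libraries share their depth and scaling, and the highest of many correlations is high by selection. Without regard to group, Smim24 (r = 0.99), Asb14 (0.97), Smim3 (0.96), the long non-coding RNA Morrbid (0.95) and Gemin2 (0.94) came first. Asb14, an ankyrin repeat and SOCS box gene, stood at 55.6 to 68.1 CPM in TG against 86.1 to 102.6 CPM in WT. Groups that do not overlap, with TG lower, were found for 1.29% of all tested genes. Likeness without regard to group carries the difference that chose Lrrc15, so nothing is read from the separation of Asb14. With each gene centred on its group means, which removes the difference that chose Lrrc15, Zfp771 (0.99), Phf24 (0.99), Phc1 (0.97), Bin3 (0.97) and Brap (0.97) came first. None of the 9 fibroblast genes was among either set. After centring, 7 of the 8 that could be ranked had a negative r with Lrrc15, from -0.37 for Dpt to -0.77 for Ddr2, and Gsn had 0.36. From the highest r, Dpt held rank 7559 and Ddr2 rank 10641 of 11162, so many other genes had a lower r. Nothing is read from these signs. The part of the depth class in them was not tested.

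Markers of other cell types were read beside these results. By edgeR 0 genes were called between TG and WT in the lists of cardiomyocytes (11 tested), endothelium (12), smooth muscle and pericytes (12), macrophages (14), erythroid cells (8), Schwann cells (7), epicardium (8), atrial muscle (6), valve and tendon (10) and fat (5). DESeq2 called 0 as well. An unadjusted edgeR p under 0.05 was found for 3.49% of all tested genes. In these lists it was found for 3 atrial, 3 macrophage, 2 fat and 1 epicardial genes and for 0 of the rest. The median log2 fold changes were 0.005, -0.03, -0.05, -0.26, -0.24, 0.29, -0.11, 2.05, 0.70 and 0.43, in the order in which the lists are first named here.

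The summed levels of the macrophage and epicardial lists overlapped between groups, and those of the atrial, fat and valve and tendon lists stood apart in single TG libraries, as given above. Over all 12670 tested genes, 6393 had a negative and 6277 a positive fold change. Of 14 macrophage markers 13 had a negative fold change. Their sum was 437 to 704 CPM in TG against 643 to 784 CPM in WT, lowest in TG replicate 3 and highest in WT replicate 4. The 10 tested valve and tendon genes were all positive, with a median of -0.12 among deeper libraries and 1.14 among shallower ones. Chad, a cartilage matrix protein, stood at 55.6 CPM in TG replicate 4 and at most 8.24 CPM elsewhere. The atrial gene Sln was at 0 in TG replicate 3 and WT replicate 2. Wt1, a transcription factor of the epicardium, stood at 7.18 to 8.09 CPM in TG against 8.46 to 11.9 CPM in WT, without overlap (log2 fold change -0.42, edgeR adjusted p = 0.9995). Such a separation with TG lower was found for 1.29% of all tested genes. The summed epicardial list overlapped, at 63.4 to 90.0 CPM in TG against 60.3 to 103.8 CPM in WT. The part of these cell types in the Lrrc15 level was not tested.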

How the data were processed

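Per the file headers, a row of a deposited table holds a Gene ID, its expected count, its FPKM and a length in bases. Expected counts are estimates by the authors, without normalization, and FPKM values are their levels scaled for gene length and library depth. The length is the value the authors deposited for each gene and library (other). The submitters' processing notes name Bowtie2 and the build mm8, with no role given. The counting program and its use of strand are not given in the sources used here. Genes absent from a library's table were taken as 0.

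Symbols came from the RefSeq table of GRCm38.p6 (18174 of 18215 numbers matched), which differs from mm8, so it served for names, gene order and promoter sequences only. Expected counts were rounded. edgeR 4.0.16 in R 4.3.3 was run on all genes that passed filterByExpr (minimum count 10, minimum total 15), with TMM scaling, a two-sided quasi-likelihood test of group and Benjamini-Hochberg adjustment at 0.05. The SE is the absolute log2 fold change over the square root of F, and the 95% interval uses the test's degrees of freedom. Log2 CPM used a prior count of 2. DESeq2 1.42.0 and limma 3.58.1 (genes whose mean reached 0.1 FPKM in TG or WT) served as alternatives. Depth classes were split at the largest gap between library totals. The test of depth class and its interaction with group were added after the data were seen. The fit was tested on simulated counts.

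The members and lists were chosen with earlier results of these data known. Named genes were the members, Carns1, up to 4 genes per list with the smallest unadjusted p, the most abundant per list by FPKM, the 2 protein-coding genes on each side of Lrrc15, and the 5 genes most like it by each of 2 measures. Not every gene the rule takes from the lists of other cell types is described. Chad, Sln, Comp, Fmod, Cilp2, Thbs4 and the collagens were named after their values were seen. Libraries of 1 group differed beyond sampling noise (chi-square over its degrees of freedom at least 4.32), so none was counted as a duplicate. The floor of 3 reads covers counting error only.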

Additional observations from a re-analysis of the deposited data

Results flagged for a closer look

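In groups of 4 libraries, a highest or lowest value was picked out where its gap to the nearest other library exceeded Dixon's 95% critical share of the range of the group. Of 20 groups examined, 10 genes in TG and in WT, 2 had such a library, and chance picks out about 1 in 20. Cilp stood at 73.4 CPM in WT replicate 4, with the next WT library at 20.1 CPM. Ddr2 stood at 34.9 CPM in TG replicate 4, with the next TG library at 21.1 CPM. Both are the replicate 4 library of their group, and both belong to the shallower class. The cause was not tested.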

How the results depend on the processing

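The count of genes called between TG and WT, 2 by edgeR, was 16 with DESeq2, 4 without a filter on low counts, 1 with limma at either FPKM pseudocount (1 or 0.1), 0 without the Carns1 reads, 28 with the depth class as a covariate, 59 in the deeper and 4 in the shallower libraries only, and 1 to 3 without a single library. The cause was not tested. The log2 fold change of Lrrc15 was -0.97 on log2(FPKM + 1), where the pseudocount lowers it, and between -1.44 and -1.16 under every other setting run. The median of the 9 fibroblast genes was -0.20 with TG replicates 2 and 4 left out, a setting chosen after the data were seen, and -0.06 to 0.15 without a single library. None of the 9 was called between TG and WT under any setting that gave a value, and the lowest adjusted p was 0.27, for Meox1. The difference of Lrrc15 relative to the 9 genes lay between -1.59 and -0.995, and it could not be had at a mean of at least 5 CPM, which removes Fap. The 5 lists of fibroblast, TGF-beta, receptor and leucine-rich repeat genes had 0 calls under each setting. Between depth classes, 2 to 6 of the 10 genes and 2581 to 3690 of all genes were called without a single library, against 6 and 4078 with all. Deviations of same-numbered libraries from their group means correlated at 0.24, -0.28, -0.18 and 0.40 for replicates 1 to 4. Over all pairs of a TG and a WT library, the correlation was positive within a depth class and negative across classes. These values therefore cannot decide whether the replicate numbers pair the libraries. With a replicate block 1 gene was called, which was not Lrrc15 (log2 fold change -1.31). Nor was Lrrc15 called without the Carns1 reads, where no gene was. Lrrc15 was called by DESeq2 and with the depth class as a covariate. Nothing is read from any of these outcomes for Lrrc15, which was chosen by this contrast.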
